A study of Mus musculus with 10 samples.

Results

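Ctla2a, Ctla2b, Dntt, Slc6a19, and Gm14085 were low in CD8+ T cells after 1 d of activation and high in T cells kept for 1 d more. They are 5 of the 25814 genes in the deposited tables and were found by name. They were chosen by their large fold changes in RPKM and exon reads from activated T cells to those kept in mixed medium or in co-culture, so these changes are given as a description and without a test.

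RNA was sequenced from 10 libraries of murine cells, 2 for each of 5 groups. Splenic CD8+ T cells, isolated with microbeads, were activated with αCD3/CD28 Abs for 1 d (activated T cells), activated for 1 d and kept for a further 1 d in keratinocyte medium, mixed with X-vivo medium according to the methods (mixed medium), or activated for 1 d and co-cultured for 1 d with keratinocytes (co-culture). Tail skin of adult mice gave the primary keratinocytes, which were cultured alone or with the T cells, which were washed off before lysis. The design text gives 1 h in place of 1 d for the co-culture. The methods name C57/B6 mice of 8 to 12 weeks, matched for sex and age, the keratinocytes are described as WT, and the labels name no mutation or transgene for any group. By their labels, activated T cells were collected earlier, right after activation, and in another medium than both other T-cell groups. The paper describes the mixed medium as poor in Ca++. Time, medium, and any end of the αCD3/CD28 stimulus therefore cannot be told apart in these comparisons. The labels name activation for the first day only and do not state whether the stimulus was removed. A legend of the study can also be read as a further day of the activated T cells in X-vivo medium. In that case the groups would differ in medium but not in time, and the sources used here do not settle this. In bulk RNA fewer cells of a type and less RNA per cell cannot be told apart either. The samples are described as parallel experiments. The labels number the replicates of activated T cells and of keratinocytes. For mixed medium and co-culture of T cells the numbers 1 and 2 follow the order of the samples, and the labels do not state whether they pair libraries. P-values measure only the spread between these libraries.

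Ctla2a and Ctla2b encode small proteins that resemble the propeptide of cysteine cathepsins and can inhibit such proteases. Dntt encodes terminal deoxynucleotidyl transferase, which adds untemplated nucleotides at V(D)J junctions and is known from immature lymphocytes. Slc6a19 encodes a sodium-dependent transporter of neutral amino acids known from intestine and kidney. Gm14085, named Slc28a2b by RefSeq, is a close copy of Slc28a2, which encodes a sodium-dependent nucleoside transporter.

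The 6 T-cell libraries expressed all 5 markers of CD8+ T cells examined, with Cd8a at 110 to 334 RPKM. Their sum was 813 and 958 RPKM in activated T cells, 2140 and 1661 RPKM after mixed medium, and 2066 and 1418 RPKM after co-culture. It was thus higher in all later libraries, as were the members, and its part in their values was not tested. Cd4 was at 16.8 RPKM in replicate 1 and 102 RPKM in replicate 2 of the activated T cells, and at 62.0 to 75.9 RPKM in the other T-cell libraries. These activated libraries also differed for Lyz2, a myeloid gene, with 10.6 RPKM in replicate 1 and 57.4 RPKM in replicate 2. Summed B-cell markers (5 genes) were at 29.9 and 31.8 RPKM in activated T cells, at 44.7 and 92.5 RPKM after mixed medium, and at 16.6 and 27.3 RPKM after co-culture. This sum was thus above that of activated T cells after mixed medium, as were the members, and below it after co-culture. Its part in the values of the members was not tested. The sum of 10 keratinocyte markers was 8.48 to 26.6 RPKM in activated and mixed-medium T cells, but 147 and 89.1 RPKM in co-cultured T cells. Mast-cell markers other than Kit were at 0 in every T-cell library except for 0.400 RPKM of Cpa3 in replicate 2 of the mixed medium. Kit, which other cells also express, was at 0.102 and 0.634 RPKM in activated T cells, 1.38 and 3.01 RPKM after mixed medium, and 1.47 and 3.09 RPKM after co-culture. It moved with the members in direction but did not pass the test (log2 fold change 2.72 and 2.84, edgeR adjusted p = 0.115 and 0.0902), and its part in their values was not tested. Replicates of a group were separate libraries, with a chi-square per degree of freedom of 89.1 to 199 between them.

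The level of Ctla2a was the highest among the members. In activated T cells it was 4.08 RPKM in replicate 1 and 11.0 RPKM in replicate 2, corresponding to 97 and 224 exon reads. Mixed medium brought 137 and 197 RPKM (2986 and 4803 reads), and co-culture 123 and 219 RPKM (2656 and 4390 reads). Thus, the levels of both later T-cell groups overlapped with each other, and all 4 values lay far above those of activated T cells. The mean of 7.54 ± 4.89 RPKM (SD, n = 2) in activated T cells compares to 167 ± 42.5 RPKM after mixed medium and 171 ± 67.9 RPKM after co-culture, which is 22.1 and 22.7 fold. The log2 fold change was 4.61 (SE 0.64) in mixed medium and 4.71 (SE 0.64) in co-culture. Without replicate 2 of the activated T cells these values were 5.57 and 5.67, without replicate 1 they were 4.06 and 4.15, and without replicate 2 of the co-culture the second was 4.11.

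Ctla2b was lower in level than Ctla2a. It gave 13 and 7 exon reads in activated T cells (0.449 and 0.282 RPKM), 293 and 553 reads in mixed medium (11.0 and 18.6 RPKM), and 393 and 870 reads in co-culture (15.0 and 35.7 RPKM). In each later group the library with more Ctla2a also had more Ctla2b, and the 2 groups overlapped. Relative to activated T cells, this is a log2 fold change of 5.49 (SE 0.70) in mixed medium and of 6.33 (SE 0.72) in co-culture, and the latter was 5.43 without replicate 2 of the co-culture. The order of both genes by fold change was not stable. With unique reads Ctla2a had 5.57 and 5.55, and Ctla2b 4.60 and 4.74.

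Both Ctla2 genes lie on the minus strand of chromosome 13 in GRCm38, Ctla2b at chr13:60895350-60897447 and Ctla2a at chr13:60934155-60936625. In GENCODE vM21 the longest coding transcript has 5 exons for each gene. The coding sequences were 96.2% identical over the part they share, with 13 mismatches and a longest identical run of 85 bases, which is longer than the read length of 59 bases. Ctla2a has 72 more bases at the start, so that it codes for 137 codons and Ctla2b for 113. Bases 73 to 372 of Ctla2a and bases 1 to 300 of Ctla2b, which hold all 13 mismatches, are shown. Reads that lie wholly within an identical run cannot be assigned to either gene by sequence. Capitals mark the bases that differ.
Ctla2a: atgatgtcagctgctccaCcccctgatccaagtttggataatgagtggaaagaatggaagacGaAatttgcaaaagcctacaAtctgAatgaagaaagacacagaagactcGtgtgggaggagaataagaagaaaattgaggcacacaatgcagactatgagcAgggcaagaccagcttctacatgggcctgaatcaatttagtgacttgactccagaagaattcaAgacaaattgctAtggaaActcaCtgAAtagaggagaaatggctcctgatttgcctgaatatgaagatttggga
Ctla2b: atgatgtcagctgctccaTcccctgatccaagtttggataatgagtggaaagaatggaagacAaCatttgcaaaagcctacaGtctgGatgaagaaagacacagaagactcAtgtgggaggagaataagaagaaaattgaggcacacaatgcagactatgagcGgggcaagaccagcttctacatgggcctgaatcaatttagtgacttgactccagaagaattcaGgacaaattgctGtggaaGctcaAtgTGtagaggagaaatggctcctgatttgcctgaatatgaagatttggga

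Most reads of this pair were not unique. In Ctla2a, 11 of 97 and 11 of 224 reads were unique in activated T cells, 344 and 663 in mixed medium, and 311 and 526 in co-culture, or 12.9% of the reads in mixed medium and 11.9% in co-culture. In Ctla2b unique reads numbered 4 and 4 in activated T cells, 70 and 120 in mixed medium, and 55 and 120 in co-culture. The separation of activated from later T cells was therefore also present in the reads that the mapping placed only once. With unique reads alone the number of Ctla2a reads per read of Ctla2b, scaled to length on neither side, was 2.75 in each activated library and 4.38 to 5.65 in the 4 later T-cell libraries.

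A further gene model of the tables, AC160962.1 (named Gm49391 in GENCODE vM21, chr13:60895350-60936571), spans both Ctla2 genes and shares their exons. It gave 27 and 37 reads in activated T cells, 659 and 1003 in mixed medium, and 705 and 1313 in co-culture, of which at most 31 in a library were unique. Of all windows of 59 bases in the Ctla2b transcript, 83.3% also occurred in this model and 8.29% in Ctla2a. For Ctla2a these were 22.9% and 4.94%. With any other gene, Ctla2a shared 27.9% of its windows (14 genes) and Ctla2b 84.8% (3 genes). The cause of the low share of unique Ctla2a reads was not tested. How the reads were shared out between the 3 models is thus uncertain. Their sum, which does not depend on it, was 137 and 268 reads in activated T cells, 3938 and 6359 in mixed medium, and 3754 and 6573 in co-culture. Ctla2a held 66.8 to 83.6% of this sum in the T-cell libraries. CT010498.2 (Gm49392), which overlaps Ctla2b, had no read in activated T cells, 57 and 45 in mixed medium, and 118 and 134 in co-culture, and of these only 1 was unique. It held 23.6% of the Ctla2b windows and is not part of the sum. The sum thus still depends on reads that were placed outside the 3 models.

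**Figure D1:**
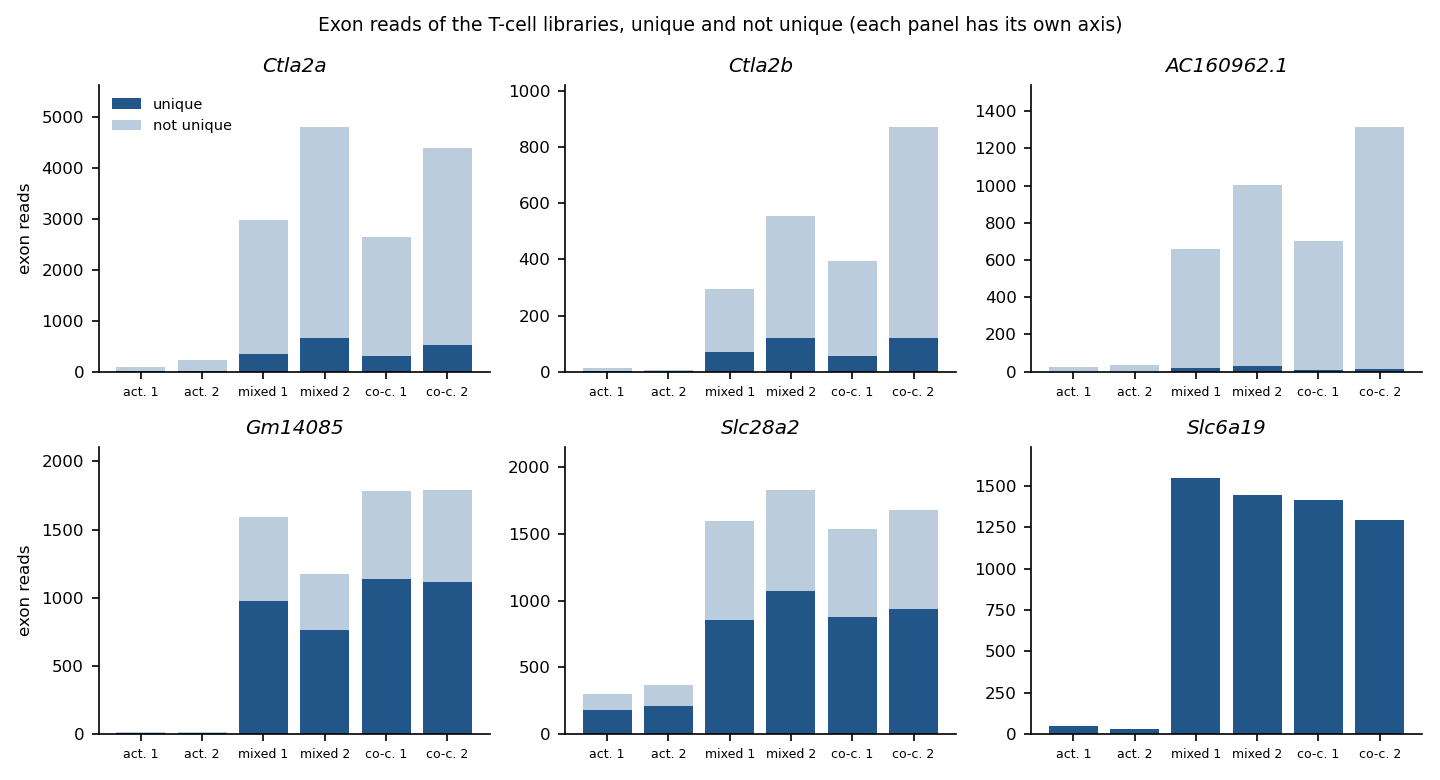
Exon reads (vertical axis, from 0, a separate scale for each panel) of the 6 T-cell libraries, with unique reads in dark and the other reads in light blue. Few reads of Ctla2a, Ctla2b, and AC160962.1 were unique, whereas all reads of Slc6a19 were, and the activated libraries were the lowest in each panel.

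The upstream regions of both Ctla2 genes were alike as well, with 91.2% identity over the aligned bases. The 250 bases before the start sites of the tables are printed, since both genes were low and high in the same libraries. Capitals mark TGACTCA, the letters of an AP-1 site, whose first base lay at -129 in Ctla2a (chr13:60936626-60936875, minus strand) and at -143 in Ctla2b (chr13:60897448-60897697, minus strand), both given 5′ to 3′ from RefSeq on GRCm38.p6.
Ctla2a upstream: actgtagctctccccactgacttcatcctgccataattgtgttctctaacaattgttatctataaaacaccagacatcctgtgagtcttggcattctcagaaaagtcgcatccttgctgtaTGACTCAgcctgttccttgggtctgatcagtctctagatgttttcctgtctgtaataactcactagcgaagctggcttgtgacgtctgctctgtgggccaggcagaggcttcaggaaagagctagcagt
Ctla2b upstream: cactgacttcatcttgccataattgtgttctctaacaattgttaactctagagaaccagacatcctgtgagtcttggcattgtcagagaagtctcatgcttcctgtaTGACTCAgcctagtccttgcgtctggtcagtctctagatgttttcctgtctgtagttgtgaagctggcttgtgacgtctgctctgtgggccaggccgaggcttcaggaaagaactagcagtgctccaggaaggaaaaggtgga
Both strands of 32817 promoters were searched, and 4.46% of them held TGACTCA within 250 bases before the start. TGACG, the core letters of a cAMP response element, occurred once in each of both genes, at -50 and -72, and in 17.7% of all promoters. The core GGAAA of NFAT sites was present in both, as in 55.6% of all promoters. The letters of a STAT site, TTCNNNGAA, were found in Ctla2a at -157 but not in Ctla2b, and in 7.01% of all promoters. The forkhead letters GTAAACA (3.16% of all) were in none of the regions of Ctla2a, Ctla2b, Dntt, and Gm14085, and Dntt and Gm14085 held no TGACTCA. The letters of a TCF/LEF site, CTTTGA, occurred in Gm14085 at -207 on the minus strand and in 13.8% of all promoters. The RefSeq start of Slc6a19 differs from that of the tables, so its upstream region was not compared. These are matches of letters and say nothing on the binding of a factor.

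Neighbours of the Ctla2 genes outside these shared models were not detected. Tpbpb and Tpbpa, which are known from trophoblast, and Ctsj, a placental cathepsin, were at 0 RPKM in all T-cell libraries.

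Among the cathepsins themselves, 2 of 9 tested genes changed in mixed medium, 1 in each direction, while of all 11863 genes 2.32% were called higher and 4.22% lower. In co-culture these shares were 4.59% and 5.72%. Ctsw, a cathepsin of cytotoxic lymphocytes, rose from 25.4 ± 2.29 to 82.9 ± 11.1 RPKM (log2 fold change 1.84, SE 0.35, edgeR adjusted p = 0.0261). Ctsz, a carboxypeptidase, fell from 110 ± 19.8 to 35.8 ± 2.37 RPKM (log2 fold change -1.46, SE 0.30, adjusted p = 0.0331). The median log2 fold change of the 9 cathepsins was 0.70, and that of all 11863 genes tested -0.01. In co-culture Ctsw again rose (2.03, adjusted p = 0.0140) and Ctsz fell (-1.76, adjusted p = 0.0141). Ctsl, which encodes the cathepsin L that CTLA-2α can inhibit, rose in co-culture from 1.70 ± 0.17 to 25.2 ± 0.04 RPKM (log2 fold change 4.08, SE 0.38, adjusted p = 0.00316), and it also rose against mixed medium (3.39, adjusted p = 0.0131). Keratinocytes held 82.1 to 153 RPKM of Ctsl, and the part of keratinocyte RNA in this rise was not tested. Of 7 tested genes of the cystatins, another family of cathepsin inhibitors, none changed in mixed medium and 1 rose in co-culture, the skin cystatin Cst6 (0.07 ± 0.01 to 10.4 ± 2.46 RPKM, adjusted p = 0.00162). Their median was 0.21 in mixed medium, where Csta1 and Stfa1 had no read in either group. Keratinocytes alone held 19.9 and 15.6 RPKM of Cst6, and co-cultured keratinocytes 3.33 and 1.01 RPKM. The part of keratinocyte RNA in the rise of Cst6 was not tested.

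Dntt was close to 0 in activated T cells, with 7 and 19 exon reads (0.196 and 0.620 RPKM). It reached 543 and 431 reads in mixed medium (16.5 and 11.7 RPKM) and 712 and 364 reads in co-culture (22.0 and 12.1 RPKM). In each later group the library with more Dntt was the one with less Ctla2a. Relative to activated T cells the log2 fold changes were 5.24 (SE 0.65, mixed medium) and 5.54 (SE 0.66, co-culture), and all reads were unique. They were 4.60 and 4.90 without replicate 1 of the activated T cells, and 6.33 and 6.63 without replicate 2. In co-culture 30.6% of the exon reads crossed a splice junction, and 3.41% of the reads of the gene fell into introns. The gene spans chr19:41029275-41059523 on the plus strand and has 12 exons in its longest coding transcript. Its neighbours Opalin and Tll2 were at 0 RPKM in all T-cell libraries, and Zfp518a and Blnk passed the test in neither comparison with activated T cells.

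This level of Dntt was not accompanied by the recombinase. Rag1 and Rag2, which cut DNA in V(D)J recombination, were at 0 in all 10 libraries. The other markers of precursor lymphocytes, Ptcra, Vpreb1, and Igll1, did not exceed 0.605 RPKM in any T-cell library. Of 11 tested genes of V(D)J recombination and end joining none was called in mixed medium, with a median log2 fold change of -0.32. With 2.32% of all genes called higher and 4.22% lower, a count of 0 among so few genes does not set the list apart. In co-culture 4.59% of all genes were called higher and 5.72% lower, and 1 of these 11 genes fell, which does not set the list apart either. It was Dnttip2, which encodes a protein that binds terminal transferase (44.0 ± 20.6 to 7.37 ± 3.10 RPKM, log2 fold change -2.39, SE 0.47, edgeR adjusted p = 0.0199), while the median of the list was 0.16. In mixed medium Dnttip2 missed the threshold (-1.77, adjusted p = 0.0593). Polm and Poll, which encode related DNA polymerases, had log2 fold changes of 0.25 and 0.92 in mixed medium, and neither passed the test.

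Slc6a19 showed the smallest spread between replicates of the later groups. It gave 45 and 27 reads in activated T cells (0.680 and 0.476 RPKM), 1551 and 1445 reads in mixed medium (25.5 and 21.3 RPKM), and 1412 and 1295 reads in co-culture (23.6 and 23.3 RPKM). The 4 later libraries thus differed little, and both groups overlapped. The log2 fold change was 5.48 (SE 0.38) in mixed medium and 5.53 (SE 0.38) in co-culture. Every read was unique, and 19.7% (mixed medium) and 21.6% (co-culture) crossed a junction. The gene lies at chr13:73679745-73704865 on the minus strand, with 12 exons in its longest coding transcript.

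A gene that assists this transporter elsewhere was not detected with it. Tmem27, the renal partner that brings it to the cell surface, was at 0 in the T-cell libraries. Slc6a18, the adjacent gene and next relative, was at 0 as well. Only 4 further genes of the SLC6 list passed the filter, and none of them passed the test in either comparison. Of all 11863 genes, 2.32% were called higher and 4.22% lower in mixed medium, and 4.59% and 5.72% in co-culture. A count of 0 among so few genes does not set the list apart. The median log2 fold change of these 4 genes was -0.68 in mixed medium, including Slc6a14 without a read in both groups. Slc6a6, a taurine transporter, was the highest of them, with 23.8 and 10.7 RPKM in activated T cells, 12.3 and 5.54 RPKM after mixed medium, and 10.1 and 4.56 RPKM after co-culture. Among the other neighbours, Tert and Slc12a7 did not pass the test, and Nkd2 was not high enough to be tested.

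Gm14085 had the largest log2 fold changes of the members in the edgeR fit of total exon reads. Only 17 and 15 reads were found in activated T cells (0.270 and 0.278 RPKM), but 1591 and 1171 in mixed medium (27.5 and 18.1 RPKM) and 1784 and 1792 in co-culture (31.3 and 33.9 RPKM). Both co-culture libraries were above both mixed-medium libraries. The mean of 0.274 ± 0.006 RPKM in activated T cells compares to 22.8 ± 6.64 RPKM after mixed medium and 32.6 ± 1.80 RPKM after co-culture, which is 83.2 and 119 fold. The log2 fold change was 6.50 (SE 0.42) in mixed medium and 7.08 (SE 0.43) in co-culture.

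Its paralog Slc28a2 was in the same T cells at similar levels but started from a higher one. Slc28a2 held 4.43 and 6.29 RPKM in activated T cells, 25.7 and 26.4 RPKM after mixed medium, and 25.1 and 29.5 RPKM after co-culture. It was not among the genes chosen and rose in both comparisons, with log2 fold changes of 2.42 (SE 0.36, edgeR adjusted p = 0.0149) and 2.55 (SE 0.36, adjusted p = 0.00793). The mean of Slc28a2 was 4.86 fold higher in mixed medium than in activated T cells. Of 5 tested genes of the nucleoside transporters, only Slc28a2 rose and none fell, in mixed medium and in co-culture, with a median of -0.33 and 0.02. Of all 11863 genes, 2.32% were called higher and 4.22% lower in mixed medium, and 4.59% and 5.72% in co-culture. Slc28a1 was at 0 in all T-cell libraries. Slc29a1, the main equilibrative transporter, was at 52.0 and 27.6 RPKM in activated T cells and at 17.9 to 24.3 RPKM in the other 4 libraries, without passing the test.

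The 2 paralogs lie side by side on the plus strand of chromosome 2, Slc28a2 at chr2:122426477-122461137 and Gm14085 at chr2:122484941-122528040. The longest coding transcript of Gm14085 has 18 exons and that of Slc28a2 19, and each codes for 660 codons. The coding sequences are 94.8% identical with 103 mismatches. The 150 bases with most differences, bases 423 to 572 of both coding sequences, are shown because reads from this stretch can be told apart. Capitals mark the 25 positions that differ.
Gm14085: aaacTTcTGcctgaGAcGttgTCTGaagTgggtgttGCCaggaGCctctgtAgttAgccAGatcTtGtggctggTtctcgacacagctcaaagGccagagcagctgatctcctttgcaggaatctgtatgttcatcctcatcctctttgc
Slc28a2: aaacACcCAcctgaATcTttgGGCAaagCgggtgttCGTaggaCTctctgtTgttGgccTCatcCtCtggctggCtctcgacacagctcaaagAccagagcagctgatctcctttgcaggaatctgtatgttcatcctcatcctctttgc

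Of the windows of 59 bases in the Gm14085 transcript 36.0% also occurred in Slc28a2, and none in any other gene. Of the Gm14085 reads 62.9% in mixed medium and 63.0% in co-culture were unique, and 56.3% and 56.4% of those of Slc28a2. The unique reads of Gm14085 numbered 10 and 8 in activated T cells, 978 and 759 in mixed medium, and 1138 and 1116 in co-culture. The ones of Slc28a2 were 177 and 213, 857 and 1072, and 876 and 937. In activated T cells Slc28a2 therefore had far more unique reads than Gm14085, while in later T cells both were of one order. Further neighbours of Gm14085, Shf, Gatm, and AA467197, did not pass the test against activated T cells, with adjusted p-values from 0.0541 (AA467197 in co-culture) to 0.98 (Shf in co-culture).

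**Figure D2:**
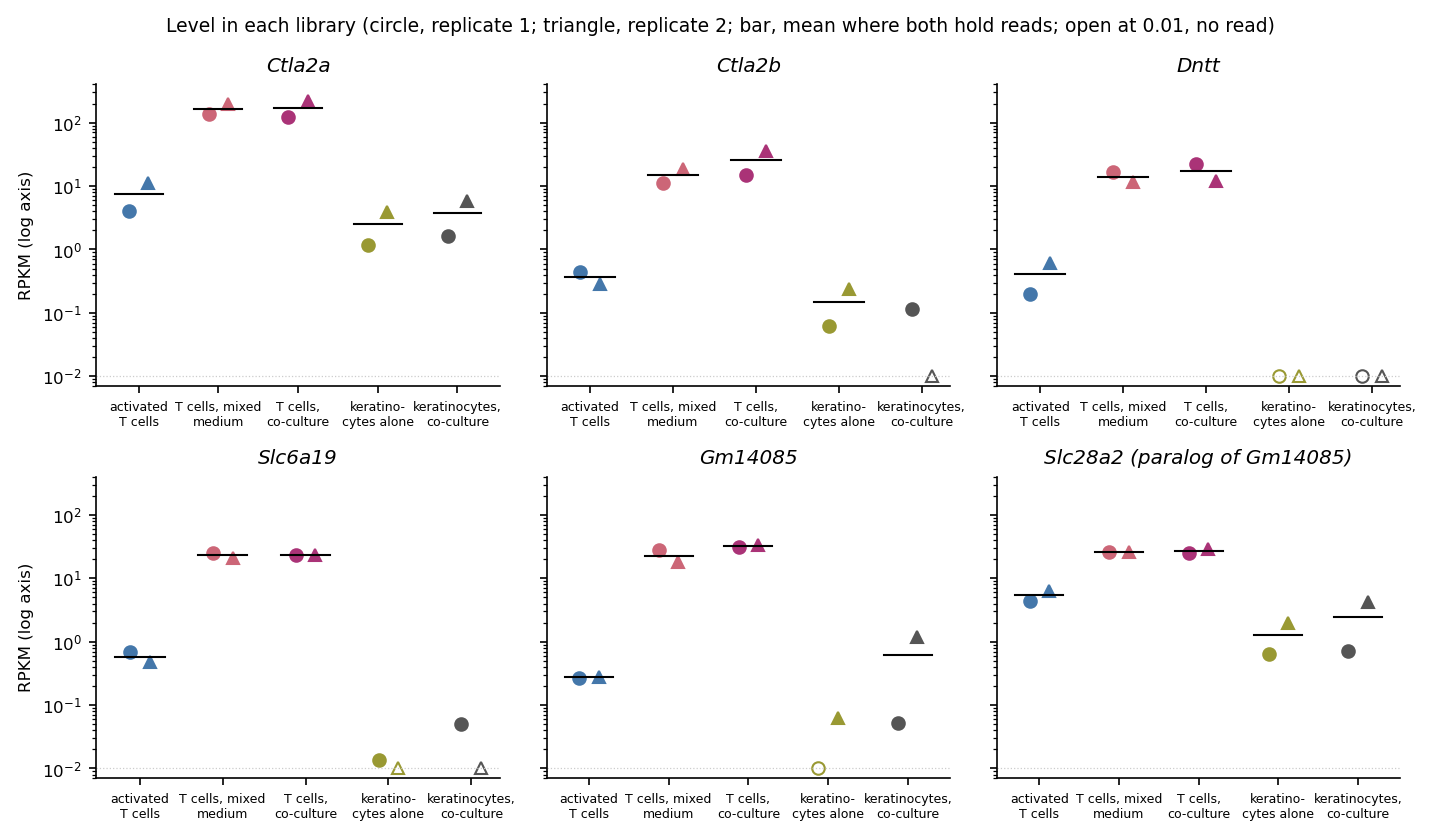
RPKM (log axis) of the 5 members and of Slc28a2 in each of the 10 libraries, with circles for replicate 1, triangles for replicate 2, bars for the mean where both libraries held reads, and open symbols at the lower edge for libraries without a read. All mixed-medium and co-culture values of T cells lie above all activated ones, from 11.0 RPKM (Ctla2b, mixed medium) to 219 RPKM (Ctla2a, co-culture).

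In each later T-cell group both libraries were above both activated libraries for all 5 members, which were chosen on these values. This was so for 22.1% of the 11863 genes tested in mixed medium and for 23.6% in co-culture. With an adjusted p below 0.05, edgeR called 275 genes higher (2.32%) and 501 lower (4.22%) in mixed medium, and 544 higher (4.59%) and 678 lower (5.72%) in co-culture. The count in mixed medium (776 genes) fell to 62 without replicate 1 of the activated T cells, and to 57 and 24 without replicate 1 and 2 of the mixed medium. In co-culture (1222 genes) it fell to 266 without replicate 1 of the activated T cells and to 498 without replicate 2 of the co-culture. With library size instead of TMM these co-culture calls split into 396 up and 762 down, and the median of all genes shifted by -0.11 (mixed medium) and -0.16 (co-culture) on the log2 scale, which is small beside the changes of the members.

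By log2 fold change in mixed medium, among 6841 genes with a mean of 5 RPKM or more in either group and whatever their test, Gm14085 and Ctla2b were ranked 4 and 5, Slc6a19 and Dntt 7 and 8, and Ctla2a 11. These ranks describe the values by which the members were chosen. Rank 1 was held by AC161165.4, which was at 0 RPKM in both activated libraries and at 75.6 and 32.7 RPKM in mixed medium. Between Dntt and Ctla2a stood AC160962.1 (4.74) and Psrc1, a spindle protein gene (4.71). Haao, which codes for an enzyme of tryptophan catabolism, was ranked 13 (4.43). In co-culture the members were ranked 59 to 76 of 6929 such genes. The first ranks were held there by genes of cornified keratinocytes such as Crct1 at a mean of 304 RPKM, Sprr1a at 367 RPKM, and Klk7 at 53.7 RPKM.

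**Figure D3:**
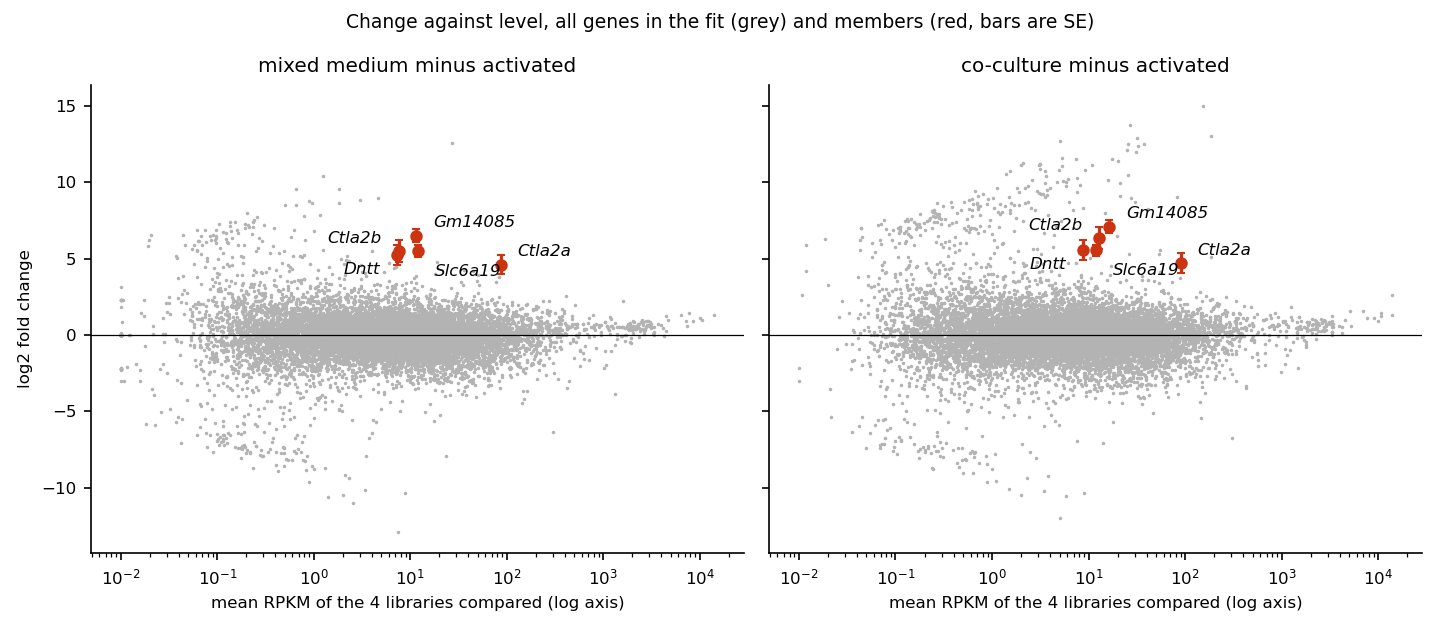
Log2 fold change (vertical axis) of the 11863 genes in the fit against their mean RPKM in the 4 libraries compared (log axis), for mixed medium (left) and co-culture (right) as compared to activated T cells, with members in red and SE as bars. Ctla2a stands at a higher level than the other members, and more genes lie above the members in co-culture than in mixed medium.

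The comparison of co-culture with mixed medium asks whether keratinocytes alter these genes beyond the medium. No member passed the test. The log2 fold change was 0.10 for Ctla2a (95% interval -1.15 to 1.36), 0.84 for Ctla2b (-0.43 to 2.12), 0.30 for Dntt (-0.90 to 1.50), 0.06 for Slc6a19 (-0.65 to 0.76), and 0.58 for Gm14085 (-0.15 to 1.31), with adjusted p-values of 1 for all. The interval was the narrowest for Slc6a19 and the widest for Ctla2b. Across the 11863 genes edgeR called 31 higher (0.261%) and 0 lower (0%) after co-culture, with 320 and 89 at an unadjusted p under 0.05. The lower count was 8 with DESeq2 and 18 without the filter. Among the members, only Gm14085 had both co-culture libraries above both mixed-medium libraries, as did 14.2% of all genes. Without replicate 2 of the co-culture the values of Ctla2a and Ctla2b became -0.50 and -0.05, and without replicate 1 that of Dntt became -0.07.

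Keratinocyte libraries held few reads of the members. Dntt had no read in any of these 4 libraries, where 3 reads correspond to 0.0743 to 0.0928 RPKM. Slc6a19 had 1 and 0 reads in keratinocytes alone and 3 and 0 in co-cultured keratinocytes. Ctla2b had 2, 7, 3, and 0 reads in the same order. Krt14, a keratin of basal keratinocytes, was at 61.6 and 16.8 RPKM in co-cultured T cells and at 7240 to 11836 RPKM in keratinocytes.

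Gm14085 had more than 4 reads in a single keratinocyte library. It had 0 and 4 reads in keratinocytes alone, 3 reads in replicate 1 of the co-cultured keratinocytes, and 72 reads in replicate 2 (1.17 RPKM). Of these 72 reads 45 were unique, none lay in an intron, and 6.94% crossed a junction, as compared to 29.7 to 33.7% in mixed-medium and co-cultured T cells. Cd3g, a T-cell gene, was at 247 RPKM in this library and at 44.2 RPKM in replicate 1, and the library with 4 reads of Gm14085 held 126 RPKM. Per 100 RPKM of Cd3g, Gm14085 was at 0.473 RPKM in replicate 2 and at 0.119 RPKM in replicate 1 of the co-cultured keratinocytes. The source of these reads was not tested.

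Ctla2a was the only member at a testable level in keratinocytes. Keratinocytes alone showed 1.19 and 3.86 RPKM and co-cultured keratinocytes 1.63 and 5.87 RPKM, so that both groups overlapped. The difference did not pass the test (log2 fold change 0.66, 95% interval -1.80 to 3.13, edgeR adjusted p = 0.806). Within each replicate number the co-cultured library held more Ctla2a. With the number as a block the log2 fold change was 0.60 (SE 0.47, edgeR adjusted p = 0.467). With 1 library left out and without the block, its sign was not stable. The value was 0.03 and 1.80 without replicate 1 and 2 of the keratinocytes alone, and 1.33 and -0.65 without replicate 1 and 2 of the co-cultured keratinocytes. No gene of 12515 was called in this comparison by edgeR (0% in both directions), with 386 higher and 515 lower at an unadjusted p under 0.05, whereas DESeq2 called 88 higher and 98 lower. Without replicate 1 of the co-cultured keratinocytes, edgeR called 107 higher and 1057 lower, and without replicate 2 it called 21, all of them higher. A difference in the effect of co-culture on Ctla2a between T cells and keratinocytes was not detected by an interaction test over both cell types (difference of log2 fold changes -0.58, SE 1.11, adjusted p = 0.973). For the other members the reads in keratinocytes were too few for this test to be read.

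The keratinocyte libraries also held the T-cell gene Cd3g, at 34.8 and 126 RPKM without and 44.2 and 247 RPKM with co-culture. Cd8a and Cd8b1, which mark CD8+ T cells, did not exceed 1.16 and 2.00 RPKM there, as compared to at least 110 and 141 RPKM in the T-cell libraries. Cd4 was at 11.4 and 43.5 RPKM without and 15.0 and 84.5 RPKM with co-culture, and Lyz2 at 6.69 and 27.4 RPKM and at 7.30 and 37.6 RPKM. The Cd3g of these libraries was thus accompanied by Cd4 and hardly by the CD8 genes, whereas the T-cell libraries held Cd4 and the CD8 genes, and ratios to Cd3g set unlike libraries side by side. Per 100 RPKM of Cd3g, the keratinocytes showed 3.43 and 3.06 RPKM of Ctla2a without and 3.68 and 2.38 RPKM with co-culture, and activated T cells 2.97 and 3.20 RPKM. T cells from mixed medium reached 29.2 and 38.4 RPKM, and those from co-culture 24.2 and 52.2 RPKM. These values of Ctla2a say nothing on the cells they come from, and the other members gave other pictures. Slc6a19 was at 0 to 0.113 RPKM per 100 RPKM of Cd3g in keratinocyte libraries and at 0.495 and 0.138 in activated T cells, and Dntt at 0 as compared to 0.142 and 0.180. Gm14085 ranged from 0 to 0.473 in keratinocyte libraries, around the 0.197 and 0.0810 of activated T cells. Slc28a2 showed a smaller separation, with 1.54 to 1.81 RPKM per 100 RPKM of Cd3g in keratinocyte libraries, 3.22 and 1.83 in activated T cells, and 4.94 to 7.03 in later T cells. The source of the Cd3g and of the members' reads in keratinocyte libraries was not tested.

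**Figure D4:**
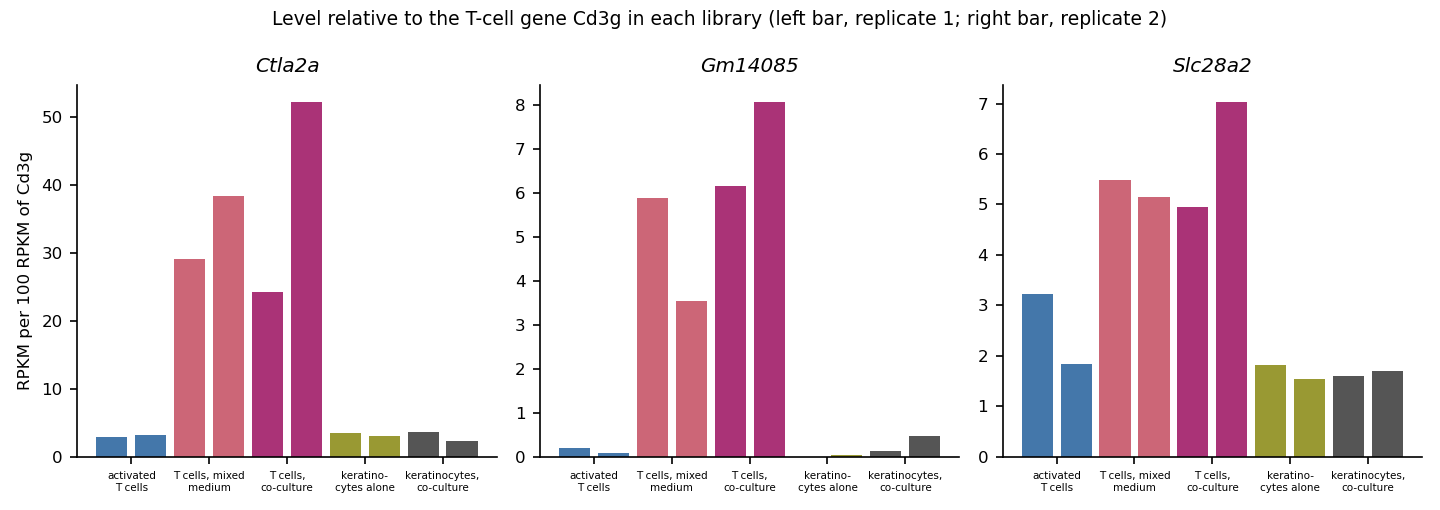
Level of Ctla2a, Gm14085, and Slc28a2 per 100 RPKM of Cd3g (vertical axes from 0, separate scales) in the 10 libraries, with 2 bars for the replicates of each group. For Ctla2a the keratinocyte bars (2.38 to 3.68) and the activated T-cell bars (2.97 and 3.20) are low, and the 4 later T-cell bars reach 24.2 to 52.2.

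Genes of resting and recirculating T cells were examined beside the members. After mixed medium 3 of 16 rose and none fell (2.32% and 4.22% of all genes), with a median log2 fold change of 1.35. Pik3ip1, an inhibitor of PI3 kinase, rose from 2.30 ± 0.92 to 34.2 ± 10.2 RPKM (log2 fold change 4.02, SE 0.45, edgeR adjusted p = 0.0112). Tcf7, which encodes TCF-1, rose from 101 ± 11.2 to 444 ± 262 RPKM (2.25, SE 0.51, adjusted p = 0.0401). The call of Tcf7 was lost without any one of the 4 libraries compared, and in co-culture it missed the threshold (1.88, adjusted p = 0.0510). Pik3ip1 and Klf3 were among the genes that rose in co-culture (median of the list 1.23). Klf2 and S1pr1 did not pass the test in either comparison, and the activated libraries were far apart, with Klf2 at 10.4 and 61.0 RPKM in replicates 1 and 2. Of the 6 list genes called in mixed medium, only Pik3ip1 remained called with each library left out in turn, and all others were lost without replicate 1 of the activated T cells. In co-culture 4 of 9 remained, Ctsl, Cst6, and Pik3ip1 among them, and the other 5 were lost without that library.

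**Figure D5:**
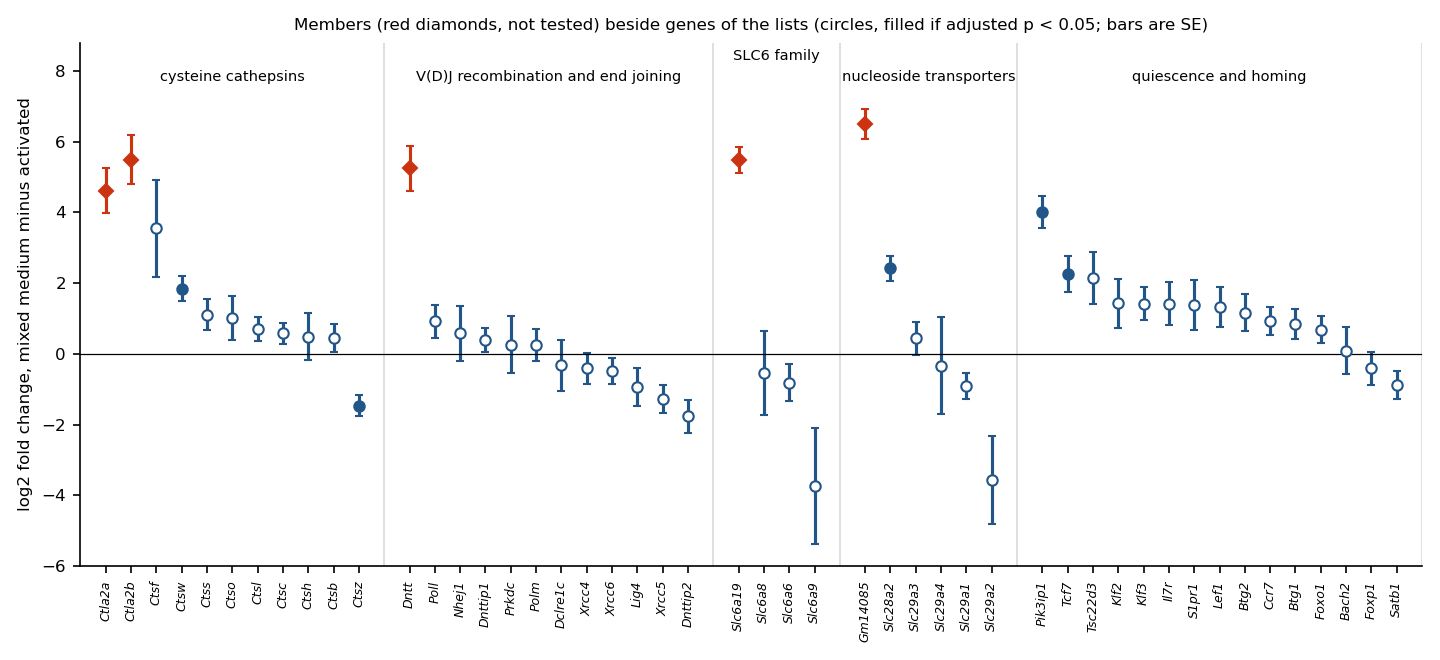
Log2 fold change in mixed medium as compared to activated T cells (vertical axis, bars are SE) for the members (red diamonds, not tested) and for tested genes of 5 lists (circles, filled at an adjusted p under 0.05). Slc6a14, without a read in both groups, the cystatins, and 1 gene not reported by name are not drawn. The members stand at 4.61 to 6.50, and of the list genes Pik3ip1 (4.02) and Slc28a2 (2.42) have the largest called rises.

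The members varied together over the 6 T-cell libraries, with Pearson's r of log2(RPKM + 1) from 0.92 (Ctla2b and Dntt) to 0.99 (Gm14085 and Slc6a19) between pairs. This is a description of 6 points that mostly differ between activated and later T cells, and 185 to 280 of 8669 genes had an r over 0.95 with a given member. The members were chosen for this difference, so a high r between them follows from the choice. Ctla2a, Ctla2b, and AC160962.1 also share sequence of read length. The most alike genes were Pcmtd2, Mapk3, and Hgsnat for Ctla2a, and Mms19, Hibch, and Asnsd1 for Ctla2b (r = 0.99 to 1.00). For Dntt they were Lgals8, Acss2, and Sesn1, for Slc6a19 Sqor, Acss1, and Mgst2, and for Gm14085 Acss1, AC161165.4, and Lypd6b. Acss1 and Acss2 encode acetyl-CoA synthetases, Mgst2 a glutathione S-transferase of membranes, and Sesn1 a stress-induced inhibitor of TORC1. Over all 10 libraries Dntt and Slc6a19 were most alike to each other (r = 0.99), and the genes most alike to Ctla2a were Saraf, Gstp3, and AC160962.1.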

How the data were processed

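The authors prepared poly(A) libraries with the NEBNext Ultra II kit, and sequenced and mapped single-end reads with the CLC Genomics Workbench (version 7.5.1) to GRCm38. The annotation release is not given in the sources used here. They deposited for each of 10 libraries and 25814 genes the counts of exon reads (total and unique), without normalization. They also deposited RPKM values, which scale the total exon reads to exon length and library size. The reads of a library numbered 12864931 to 18019609, and 78.2 to 87.2% of them were unique.

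Members were found by name. Members and gene lists were chosen with earlier results of these data known. Total exon reads were fitted with edgeR 4.0.16 (filterByExpr, TMM, glmQLFit, glmQLFTest) in R 4.3.3, the 6 T-cell and the 4 keratinocyte libraries apart, with Benjamini-Hochberg adjusted p-values over all genes of a fit. The members were chosen on the comparisons with activated T cells, therefore no p-values are given for them there. The scripts were tested on simulated data. Some members of the gene lists are counted but not reported by name here.

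Named genes are the members, the most alike genes (Pearson's r of log2(RPKM + 1), genes with a group mean of at least 5 RPKM), neighbours, list genes with an adjusted p under 0.05 or a partner role, genes ranked next to the members, and defining markers. The fits were repeated with unique reads, without a filter, with library size instead of TMM, with only the 4 libraries compared, with the replicate number as a block, without each library in turn, with DESeq2 1.42.0, and with limma 3.58.1 after addition of 1 or 0.1 to RPKM on a log2 scale. Windows of 59 bases, identities, and motifs were computed from GENCODE vM21 transcripts and RefSeq promoter sequences with Biopython 1.88. Tables and plots were made in Python 3.11.15 (matplotlib 3.10.9, pandas 2.3.3, numpy 2.4.6, scipy 1.17.1).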

Additional observations from a re-analysis of the deposited data

How the results depend on the processing

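The log2 fold changes of the members against activated T cells stayed positive under all 130 alternative values, with a range of 3.42 (Dntt in mixed medium, limma on log2(RPKM + 1)) to 7.24 (Gm14085 in co-culture, unique reads), and 28 of them moved by more than the SD between replicates. The order of Ctla2a and Ctla2b by fold change also turned with limma on log2(RPKM + 1) in both comparisons (4.41 and 4.15 in co-culture), and in mixed medium without replicate 2 of the activated T cells (5.57 and 5.25). In the comparison of co-culture with mixed medium no member passed the threshold under any alternative. In keratinocytes this was examined for Ctla2a only, which did not pass under any alternative that gave a value. The other members were too low for the main keratinocyte fit, and their values under the alternatives were not examined. The sign of these uncalled values was not stable. Between co-culture and mixed medium, the log2 fold change of Ctla2a was -0.016 with unique reads and that of Slc6a19 was -0.0095 with library size in place of TMM. With 1 library left out the values ranged from -0.50 to 0.53 for Ctla2a, from -0.053 to 1.39 for Ctla2b, from -0.070 to 0.60 for Dntt, from -0.036 to 0.14 for Slc6a19, and from 0.37 to 0.81 for Gm14085. In keratinocytes the range of Ctla2a was -0.65 to 1.80. The number of genes called changed more. With DESeq2 it was 1948 in mixed medium, 2369 in co-culture, 87 between co-culture and mixed medium, and 186 in keratinocytes, and without the filter 1945, 2425, 141, and 11. With limma 99 (log2(RPKM + 1)) and 107 (log2(RPKM + 0.1)) genes were called between co-culture and mixed medium. With 1 library left out these counts ranged from 24 to 1067, 266 to 1093, 16 to 52, and 0 to 1164. The causes of these changes were not tested. A lone library was then assumed to vary like the other groups.

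The replicate numbers of the keratinocytes were given in the labels. With the number as a block 2 genes were called in place of 0, and deviations from the group means correlated with r = 0.56 across 12515 genes between libraries of the same number, which is a hint from the data and not from the design. The T cells of mixed medium and co-culture carry no number in the labels, and no block was fitted for them. Replicate 1 held more Cd8b1 than replicate 2 in each T-cell group, whereas Cd4 kept no such order. By these numbers Ctla2b, Dntt, and Gm14085 were higher in co-culture than in mixed medium for both, while Ctla2a and Slc6a19 differed in direction. Whether the numbers pair libraries was not tested, and the comparison of co-culture with mixed medium treats them as unpaired. In activated T cells 7 to 45 reads of Ctla2b, Dntt, Slc6a19, and Gm14085 limit the precision of their folds. Floors and intervals of counts cover counting error only.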

Other observations

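Other genes with large rises in mixed medium, chosen after their values were seen, were of several kinds. Itgae, the integrin chain CD103 of tissue-resident T cells, was at a mean of 68.3 RPKM as compared to 3.79 RPKM in activated T cells, and Klrd1, the NK receptor chain CD94, at 153 as compared to 12.5 RPKM. The cell cycle genes Ccnb2 (84.5 as compared to 5.19 RPKM) and Cdkn3 (12.9 as compared to 0.682 RPKM) were higher as well. All 4 genes passed the test (edgeR, adjusted p under 0.05), which adds nothing to the values by which they were chosen.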
